A study of Mus musculus with 7 samples.

Results

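The genes described here were 10 genes of the endoplasmic reticulum (ER) stress response and the integrated stress response, namely Atf3, Atf4, Ddit3, Trib3, Asns, Hspa5, Xbp1, Herpud1, Chac1 and Fgf21, in mouse liver with and without Rbpj. They were taken by gene symbol, and every probe of each gene was kept, which gave 11 probes (Atf4 had a pair, the others 1 each) of the 55681 gene probes on the array. All 10 genes passed the filter on dim probes and were tested among 18781 genes.

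RNA of whole liver from untreated 4-week-old mice on a C57BL/6J background was labelled with Cy3 and hybridised to Agilent 8x60K mouse arrays, with 1 animal per array and no pooling. The control group, Rbpj+/+, consisted of 4 AlfpCre- Rbpj flox/flox animals (called here by the endings of their labels, +/+_1155, +/+_1156, +/+_1024 and +/+_991). The knockout group, Rbpj-/-, consisted of 3 AlfpCre+ Rbpj flox/flox animals (-/-_N3, -/-_N5 and -/-_2866). Animals of both groups thus carried the floxed allele, and the control group carried no Cre. The paper that reported these data describes cholestasis, liver necrosis and lower body weight in 4-week-old Rbpj-/- mice. In Rbpj+/+ mice it reports neither cholestasis nor necrosis. It does not state whether the animals of these arrays were among those examined. The Alfp promoter drives Cre in the liver from the embryonic stage on, in the precursors of hepatocytes and bile duct cells, so that blood and vessel cells in the tissue keep Rbpj. RBPJ is the DNA-binding partner through which Notch receptors switch on their target genes, and the comparison asked how the liver's transcripts differ after its loss.

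A cell whose ER fills with unfolded protein activates 3 sensors, IRE1, PERK and ATF6. IRE1 splices the mRNA of Xbp1, ATF6 is cut to release a transcription factor, and PERK phosphorylates the translation factor eIF2alpha. The last step is shared with kinases that sense amino acid shortage, viral RNA or haem shortage, and is called the integrated stress response: general translation falls while the mRNA of Atf4 is translated more. ATF4 then switches on genes for amino acid supply and, together with CHOP (the product of Ddit3) and ATF3, genes that end the response or lead to cell death. In the liver, FGF21 is a hormone that is made under fasting through the nuclear receptor PPARalpha and under stress through ATF4. Splicing of Xbp1, phosphorylation and translation were not measured by these arrays.

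Every value below is a log2 level, the log2 processed intensity of a probe minus the 75th percentile of its array, or a log2 fold change, the mean of the Rbpj-/- group minus that of the Rbpj+/+ group. Levels of different probes are not compared, since probes differ in brightness. A gene was called changed when limma's p-value, adjusted with the Benjamini-Hochberg method over all tested probes, was below 0.1. By this rule 34.2% of all tested genes were called, 14.6% as higher and 19.6% as lower in Rbpj-/- livers, and the median log2 fold change of all tested genes was -0.13. The p-values measure the spread between the animals, and their precision is limited by how many arrays there are. Rbpj itself was lower in Rbpj-/- livers, by -1.13 on the log2 scale (95% interval -1.67 to -0.60, limma adjusted p = 0.0115), at its brighter probe. Its dimmer probe, which the array design places on another chromosome, gave -1.63 (0.0723), and whether either lies in the deleted part was not determined. All arrays lay on the same slide with the groups in separate rows, so that slide row and genotype cannot be told apart. The share of probes well above background was 41.1% to 64.9% per array, and was highest in +/+_1156 and -/-_N3, whose dim probes were also brightest. The 75th percentile that was subtracted was an intensity of 57.5 to 103 on Rbpj+/+ arrays and 118 to 143 on Rbpj-/- arrays.

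Of the 10 genes, 3 were called: Atf3 was higher, and Fgf21 and Atf4 were lower in Rbpj-/- livers. The same 3 genes had groups that did not overlap, against 36.5% of all tested genes. The share called among the 10 genes was thus near that of all genes. The log2 fold change was below 0 for 7 genes and above 0 for 3, with a median of -0.50 against -0.13 for all tested genes. The remaining 7 genes, among them the ER chaperone Hspa5 and the pro-apoptotic factor Ddit3, did not pass the test.

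**Figure D1:**
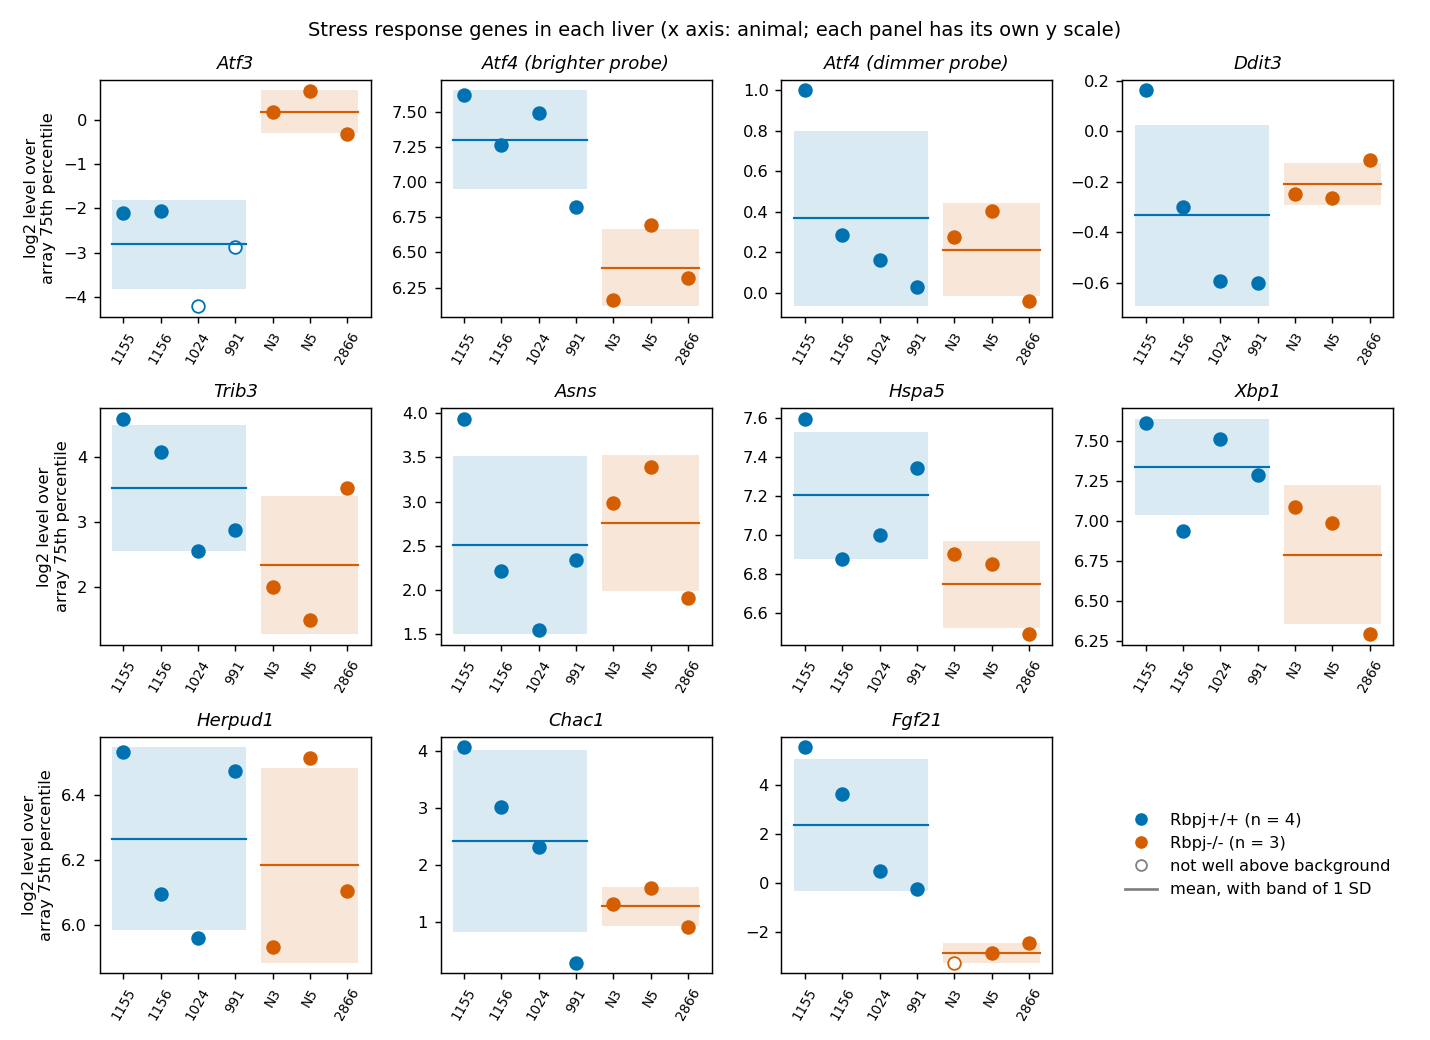
Log2 level over the array's 75th percentile (y axis, own scale in each panel) of the 11 probes in each animal (x axis), with Rbpj+/+ in blue (n = 4) and Rbpj-/- in orange (n = 3). Lines are group means with a band of 1 SD, and open circles mark arrays on which the probe was not well above background. The groups do not overlap for Atf3, Fgf21 and the brighter Atf4 probe.

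**Figure D2:**
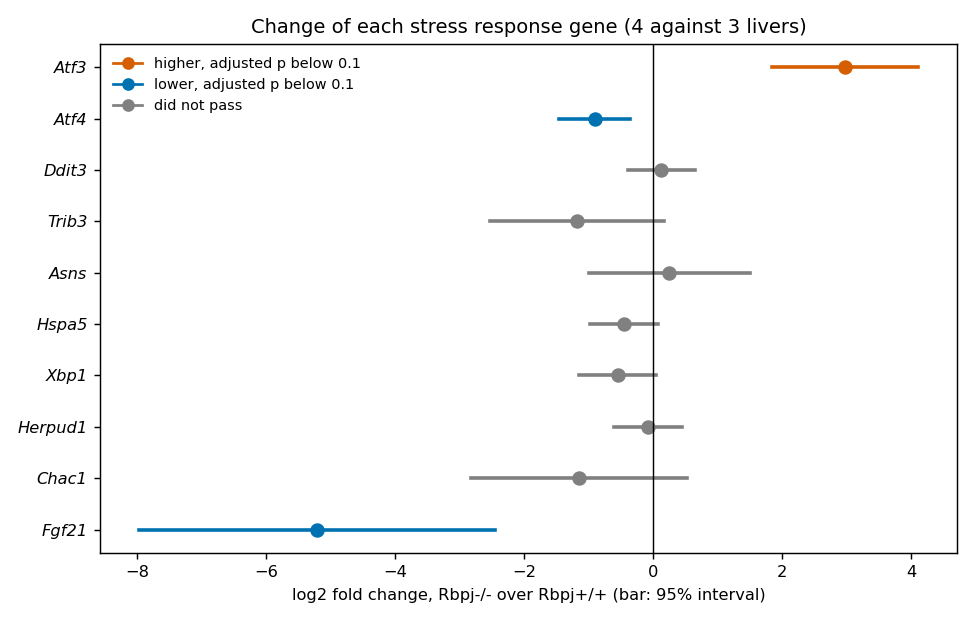
Log2 fold change, Rbpj-/- over Rbpj+/+ (x axis), of each gene at its brightest tested probe, with bars for the 95% interval. Atf3 lies at 2.98, Atf4 at -0.91 and Fgf21 at -5.21, and the intervals of the other 7 genes include 0.

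The promoter sequences of the 10 genes were searched for the short motifs through which these factors act. Windows from 250 bases before to 50 bases after the annotated start were found for all 10 genes in RefSeq (GRCm38.p6) and searched on both strands. The letters TGATGNAA, a core of the C/EBP-ATF response element bound by ATF4 with a C/EBP partner, were found in 6 genes (Atf3, Trib3, Asns, Herpud1, Chac1 and Fgf21) and in 3.97% of all 32851 promoter windows. The ER stress response element, CCAAT and CCACG separated by 9 bases, was found in Hspa5 and in 0.119% of all windows. The letters TGACGTGG and TGACGTCA, cores of an XBP1 site and of the cAMP response element, were found in none of the 10 genes and in 0.676% and 1.79% of all windows. In Trib3 the match lay after the start, and no matches overlapped each other. These are matches of letters in a window and no measure of binding.

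Atf3, Herpud1, Chac1 and Fgf21 held the same 8 letters, TTGCATCA, which match TGATGNAA on the other strand. They are shown because these 4 genes share the site and differed in what was measured. The 250 bases before the start are given on the strand of the gene, with the motif in capitals.
Fgf21, GRCm38.p6 chr7:45615491-45615740, minus strand: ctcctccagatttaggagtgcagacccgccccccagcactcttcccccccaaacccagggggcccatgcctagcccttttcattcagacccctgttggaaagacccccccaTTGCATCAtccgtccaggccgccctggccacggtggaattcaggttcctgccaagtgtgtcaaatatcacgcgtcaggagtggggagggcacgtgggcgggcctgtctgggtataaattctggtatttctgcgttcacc
Atf3, GRCm38.p6 chr1:191183334-191183583, minus strand: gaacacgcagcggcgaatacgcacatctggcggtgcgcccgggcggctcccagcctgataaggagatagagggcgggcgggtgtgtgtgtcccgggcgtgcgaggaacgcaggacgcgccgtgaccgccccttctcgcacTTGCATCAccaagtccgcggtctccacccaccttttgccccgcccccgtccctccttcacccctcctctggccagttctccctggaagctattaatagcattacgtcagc
Chac1, GRCm38.p6 chr2:119350992-119351241, plus strand: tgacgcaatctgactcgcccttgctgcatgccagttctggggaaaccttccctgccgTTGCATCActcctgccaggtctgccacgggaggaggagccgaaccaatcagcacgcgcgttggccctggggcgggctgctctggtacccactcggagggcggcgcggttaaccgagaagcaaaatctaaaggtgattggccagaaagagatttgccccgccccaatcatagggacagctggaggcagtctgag
Herpud1, GRCm38.p6 chr8:94386179-94386428, plus strand: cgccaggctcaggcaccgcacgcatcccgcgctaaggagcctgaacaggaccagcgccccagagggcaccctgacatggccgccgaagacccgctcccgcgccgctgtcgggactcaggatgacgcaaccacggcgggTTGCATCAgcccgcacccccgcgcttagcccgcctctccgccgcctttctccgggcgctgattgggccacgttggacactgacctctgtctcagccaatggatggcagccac
Hspa5 is shown for its ER stress response element, again in capitals.
Hspa5, GRCm38.p6 chr2:34771840-34772089, plus strand: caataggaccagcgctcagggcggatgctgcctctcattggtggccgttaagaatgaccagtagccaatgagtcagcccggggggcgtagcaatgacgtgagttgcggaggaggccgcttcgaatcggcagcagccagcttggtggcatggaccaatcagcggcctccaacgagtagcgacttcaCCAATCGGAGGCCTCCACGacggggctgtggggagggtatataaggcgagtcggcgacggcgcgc
Of these genes, Fgf21 was lower, Atf3 was higher, and Chac1, Herpud1 and Hspa5 did not pass the test.

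Atf4 encodes the transcription factor at the centre of the integrated stress response, which is controlled mainly through its translation. Its brighter probe (mm9 chr15:80087902-80087961) had log2 levels of 7.62, 7.27, 7.49 and 6.82 in the Rbpj+/+ animals +/+_1155, +/+_1156, +/+_1024 and +/+_991. It had 6.17, 6.69 and 6.32 in the Rbpj-/- animals -/-_N3, -/-_N5 and -/-_2866. Each Rbpj-/- liver lay below each Rbpj+/+ liver, with -/-_N5 and +/+_991 only slightly apart. On average the level was 1.87-fold lower, a log2 fold change of -0.91 (95% interval -1.46 to -0.35) with a limma adjusted p of 0.0300. The exact two-sided permutation test over the 35 assignments of the animals gave p = 0.0571, where the smallest p this design allows is 0.0286. The dimmer probe of Atf4, which the array places upstream of the brighter one (mm9 chr15:80086639-80086698), did not show this difference. Its log2 levels were 1.0, 0.28, 0.16 and 0.03 in Rbpj+/+ and 0.28, 0.40 and -0.04 in Rbpj-/- livers, so the groups overlapped, and its log2 fold change was -0.16 (limma adjusted p = 0.696). The probes of Atf4 therefore disagreed. The call at the brighter probe was lost in 6 of 19 alternative fits, among them quantile normalisation (limma adjusted p = 0.119), the fit without -/-_N3 (0.102) and the fit without a filter on dim probes (0.187).

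Atf3, a transcription factor of the same family that is induced by ATF4 and by many other acute signals, had the opposite course. Its log2 levels were -2.11, -2.06, -4.19 and -2.87 in Rbpj+/+ animals +/+_1155, +/+_1156, +/+_1024 and +/+_991, of which +/+_1024 and +/+_991 were not well above background. The levels in the Rbpj-/- animals -/-_N3, -/-_N5 and -/-_2866 were 0.18, 0.65 and -0.32, all well above background. The groups were clearly apart, since the lowest Rbpj-/- liver exceeded the highest Rbpj+/+ liver. The means were -2.81 ± 0.99 (SD, n = 4) and 0.17 ± 0.48 (SD, n = 3), and the log2 fold change was 2.98 (95% interval 1.84 to 4.11), a 7.88-fold higher level with a limma adjusted p of 0.00512. The exact two-sided permutation p was 0.0286, the smallest possible here. Atf3 passed the filter on dim probes through the Rbpj-/- arrays, and since only 2 of the 4 Rbpj+/+ arrays measured it, the size of its fold change is uncertain. With normexp background correction, which raises dim values, the log2 fold change was 1.04 and the call was kept. Summed levels of macrophage and neutrophil markers were also higher in Rbpj-/- livers. The summed level of 9 macrophage markers, in multiples of the array's 75th percentile, was 79.8 to 99.5 in Rbpj+/+ and 260 to 379 in Rbpj-/- livers, and 7 of the 9 were called higher and 1, Itgam, lower (log2 fold change -1.54, limma adjusted p = 0.00969). The summed level of 5 neutrophil markers was 5.05 to 22.3 against 32.4 to 68.9, with 3 of 5 called higher and 1, Elane, lower (-0.50, 0.0979). Over all tested genes, 14.6% were called higher and 19.6% lower. Some of the markers called higher passed the filter on dim probes only through the Rbpj-/- arrays. Bright probes weigh most in such sums. The brightest macrophage marker in Rbpj-/- livers, Marco, had mean log2 levels of 4.23 in Rbpj+/+ and 7.155 in Rbpj-/- livers. Among Rbpj-/- livers -/-_N5 had the highest Atf3 level and the lowest sum of both marker lists, and the part of these cells in the Atf3 result was not tested. In whole tissue, a different number of cells of a type and a different amount of RNA per cell cannot be told apart.

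Ddit3 encodes CHOP, the factor through which lasting ER stress leads to cell death, and the array file gives no position for its probe. The log2 levels were 0.16, -0.30, -0.59 and -0.60 in Rbpj+/+ and -0.25, -0.26 and -0.11 in Rbpj-/- livers. The Rbpj-/- livers lay inside the range of the Rbpj+/+ livers and close to each other, with an SD of 0.0822. Ddit3 had a log2 fold change of 0.12, the limma adjusted p was 0.718, and the 95% interval spanned a ratio of 0.761 to 1.56.

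Trib3 encodes a pseudokinase that is induced by ATF4 and CHOP and restrains them in turn. Its probe (mm9 chr2:152163161-152163220) had log2 levels of 4.58, 4.07, 2.55 and 2.88 in Rbpj+/+ and 2.0, 1.5 and 3.53 in Rbpj-/- livers. The groups overlapped through -/-_2866, which lay above +/+_1024 and +/+_991. Trib3 had a log2 fold change of -1.18 (95% interval -2.53 to 0.17, limma adjusted p = 0.179). Without -/-_2866 it was -1.78 with a limma adjusted p of 0.0718, so 1 animal decided whether Trib3 was called. Without -/-_N5 it was -0.76 with a limma adjusted p of 0.467. Of 19 alternative fits, 1 called Trib3.

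Chac1, a glutathione-degrading enzyme induced by ATF4, gave log2 levels of 4.07, 3.02, 2.32 and 0.28 in Rbpj+/+ and 1.31, 1.60 and 0.91 in Rbpj-/- livers (mm9 chr2:119179990-119180049). Only +/+_991 of the Rbpj+/+ animals lay below the Rbpj-/- animals. Its log2 fold change was -1.15 (95% interval -2.83 to 0.52, limma adjusted p = 0.283). Without +/+_991 it was -1.87 with a limma adjusted p of 0.0265. Without +/+_1155 it was -0.60 with a limma adjusted p of 0.519. Of 19 alternative fits, 1 called Chac1.

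Asns, the enzyme that makes asparagine and a classic ATF4 target, had log2 levels of 3.94, 2.22, 1.55 and 2.34 in Rbpj+/+ and 2.99, 3.39 and 1.90 in Rbpj-/- livers (mm9 chr6:7625169-7625228). The groups overlapped over most of their range, and +/+_1155 was highest of all livers. The log2 fold change was 0.25 with a limma adjusted p of 0.767 and a wide 95% interval of -1.0 to 1.5.

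Hspa5 encodes BiP, the main ER chaperone, which also holds the sensors inactive. Its probe (mm9 chr2:34631913-34631972) had log2 levels of 7.59, 6.88, 7.0 and 7.34 in Rbpj+/+ and 6.90, 6.85 and 6.49 in Rbpj-/- livers. -/-_N3 lay just above +/+_1156, and the other Rbpj-/- livers lay below all Rbpj+/+ livers. BiP mRNA thus had a log2 fold change of -0.46 (limma adjusted p = 0.182), and the 95% interval spanned a ratio of 0.506 to 1.05. The fit without +/+_1156 gave a limma adjusted p of 0.0976, and Hspa5 was then called lower. With quantile normalisation the log2 fold change was -0.16 (limma adjusted p = 0.636). Of 19 alternative fits, 2 called Hspa5.

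Xbp1, the transcription factor made active by IRE1 splicing, had log2 levels of 7.61, 6.93, 7.51 and 7.29 in Rbpj+/+ and 7.09, 6.98 and 6.29 in Rbpj-/- livers (mm9 chr11:5425816-5425875). As for Hspa5, +/+_1156 was the only Rbpj+/+ liver within the range of the Rbpj-/- livers. Xbp1 had a log2 fold change of -0.55 (limma adjusted p = 0.159), with a ratio of 0.453 to 1.03 spanned by the 95% interval. Without +/+_1156 Xbp1 was called lower, with a limma adjusted p of 0.0836. With quantile normalisation its log2 fold change was -0.26 (limma adjusted p = 0.504). Of 19 alternative fits, 3 called Xbp1.

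Herpud1, an ER membrane protein that serves the degradation of misfolded proteins, had log2 levels of 6.53, 6.10, 5.96 and 6.48 in Rbpj+/+ and 5.93, 6.51 and 6.10 in Rbpj-/- livers (mm9 chr8:96919117-96919176). The groups covered nearly the same range. The log2 fold change was -0.08 with a limma adjusted p of 0.818, and its sign turned with normexp (0.22) and with quantile normalisation (0.14).

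Fgf21 had the largest change of the 10 genes and the widest spread between control animals. Its probe (mm9 chr7:52869305-52869364) had log2 levels of 5.54, 3.64, 0.51 and -0.22 in the Rbpj+/+ animals +/+_1155, +/+_1156, +/+_1024 and +/+_991. The Rbpj-/- animals -/-_N3, -/-_N5 and -/-_2866 had -3.24, -2.85 and -2.44, and the probe was not well above background in -/-_N3. Every Rbpj-/- liver lay below every Rbpj+/+ liver, but the Rbpj+/+ livers themselves spanned a 54.2-fold range. As processed intensities these were 4777 in +/+_1155, 1067 in +/+_1156, 81.9 in +/+_1024 and 64.4 in +/+_991, against 15.1 to 21.8 in Rbpj-/- livers. The means of the log2 levels were 2.37 ± 2.70 (SD, n = 4) and -2.84 ± 0.40 (SD, n = 3). The log2 fold change was -5.21 (95% interval -7.96 to -2.45, limma adjusted p = 0.0177), a 37.0-fold lower mean level whose size rests on which control animals are averaged. Without +/+_1155 it was -4.15, without +/+_991 it was -6.07, and Fgf21 was called in each fit that left out 1 array. The call was lost without +/+_1156 and -/-_N3 together (limma adjusted p = 0.107) and without a filter on dim probes (0.131). The exact two-sided permutation p was 0.0571. Fgf21 passed the filter on dim probes through the Rbpj+/+ arrays, and 2 of the 3 Rbpj-/- arrays measured it. The summed level of 8 hepatocyte markers was 2550 to 3980 times the array's 75th percentile in Rbpj+/+ and 1990 to 2520 times in Rbpj-/- livers. Of the 8 markers 4 were called lower and none higher, where 19.6% of all tested genes were called lower. Cps1 (log2 fold change 0.94) and Tat (0.52) went the other way without passing the test. The part of the lower sum in the lower levels of Fgf21 and Atf4 was not tested.

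The spread between animals set these genes apart from each other. Among Rbpj+/+ livers the SD of Fgf21 was exceeded by that of 1 tested gene, and that of Chac1, 1.60 on the log2 scale, by 72. The SD of Asns was exceeded by 573 genes, that of Atf3 by 623 and that of Trib3 by 702. Hspa5, Xbp1, Herpud1, Atf4 and Ddit3 had ranges of 0.57 to 0.80 on the log2 scale in the same animals. Animal +/+_1155 was highest of the Rbpj+/+ livers in 9 of the 10 genes, all but Atf3, and was on average 0.97 above the group mean on the log2 scale. In 5 genes, Atf3, Chac1, Ddit3, Fgf21 and Trib3, both +/+_1155 and +/+_1156 lay above both +/+_1024 and +/+_991. In Rbpj-/- livers the range of Fgf21 was 1.74-fold and that of Chac1 1.61-fold, whereas that of Trib3 was 4.09-fold, equal to its range of 4.07-fold in Rbpj+/+ livers. No Rbpj-/- animal led in most genes: -/-_N5 was highest in 5, -/-_2866 in 3 and -/-_N3 in 2.

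**Figure D3:**
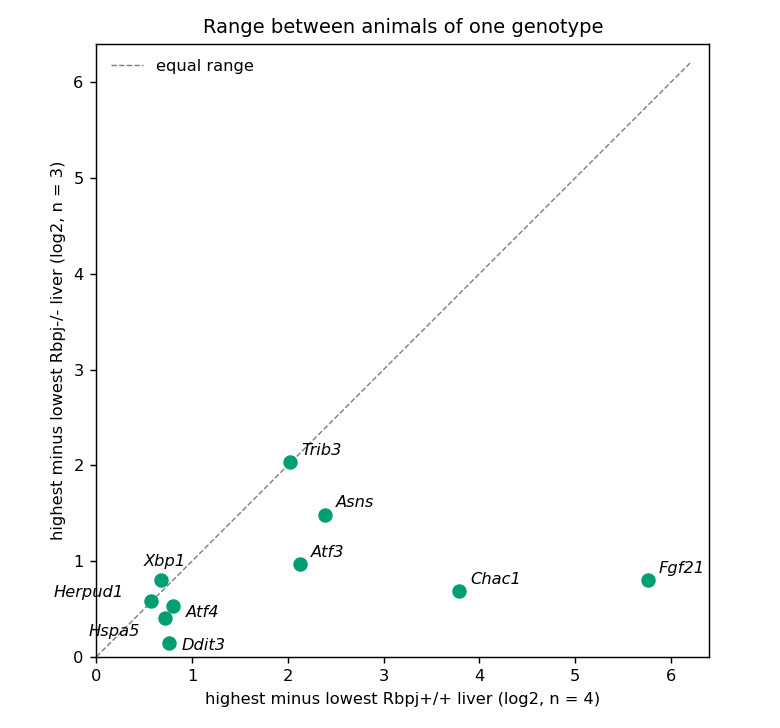
Highest minus lowest log2 level among Rbpj+/+ livers (x axis, n = 4) and among Rbpj-/- livers (y axis, n = 3) for each gene, with a dashed line of equal range. Fgf21 and Chac1 lie far to the right, with control ranges of 5.76 and 3.79.

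Genes around these 10 were described in lists for the same pathways, 148 genes in all, of which 142 were tested. In these lists 17 genes (12.0%) were called higher and 30 (21.1%) lower, close to the shares over all tested genes, and the median log2 fold change was -0.14. The difference between lists was not tested, and each list is described by its counts beside those of all tested genes.

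**Figure D4:**
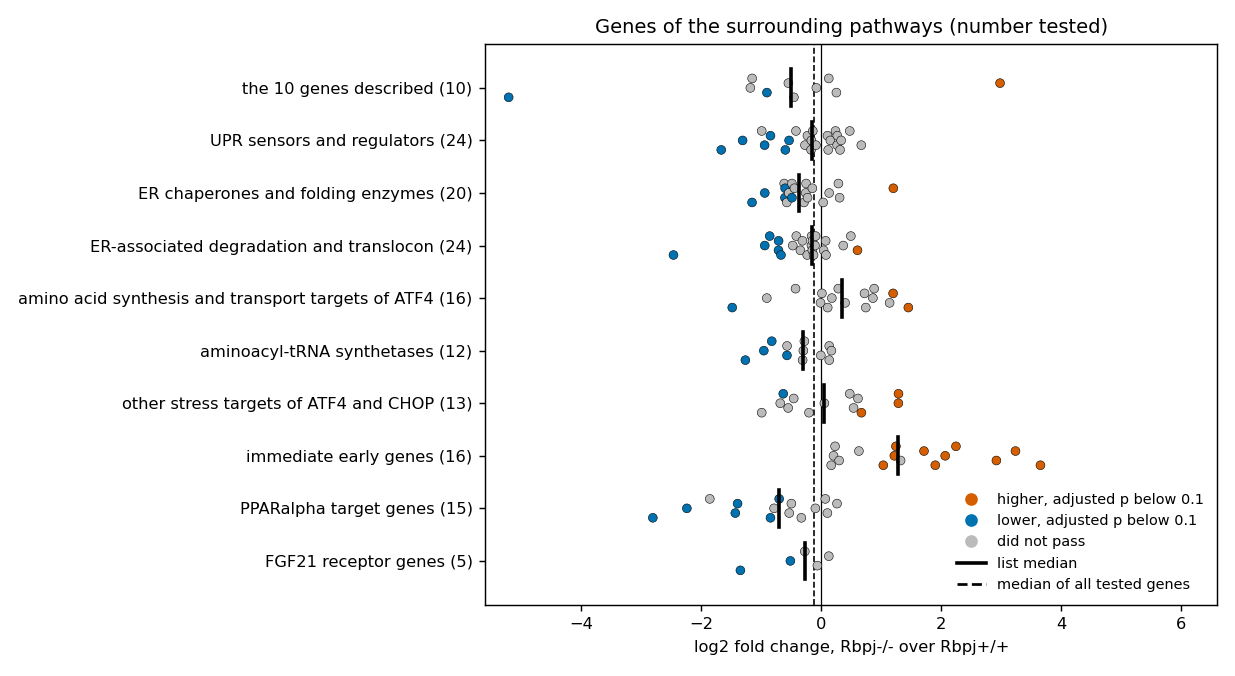
Log2 fold change, Rbpj-/- over Rbpj+/+ (x axis), of the tested genes of each list (rows, number tested in parentheses), with orange for higher and blue for lower calls. Black bars are list medians and the dashed line is the median of all tested genes, -0.13. The median of the immediate early genes lies at 1.28 and that of the PPARalpha target list, which includes Ppara, at -0.70.

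Of 24 sensors and regulators of the unfolded protein response, 6 were lower and none was higher, with a median of -0.15, and the 25% called did not exceed the 34.2% of all tested genes. Ern1, which encodes the sensor IRE1alpha, fell by 1.31 on the log2 scale (limma adjusted p = 0.00405). Atf5, a factor related to ATF4 that is translated under stress in the same way, had log2 levels of 8.57 to 8.91 in Rbpj+/+ and 6.26 to 7.80 in Rbpj-/- livers and fell by 1.67 (limma adjusted p = 0.00942). Creb3l3, the liver's ER-bound factor CREBH, fell by 0.85 (limma adjusted p = 0.0136). Bbc3, which encodes the cell death protein PUMA, fell by 0.94 (limma adjusted p = 0.0621), although its groups overlapped.

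Of 20 ER chaperones and folding enzymes, 5 were lower and 1 was higher, with a median of -0.37, and 30% were called against 34.2% of all tested genes. The lower genes included Sdf2l1, a partner of BiP (log2 fold change -1.15, limma adjusted p = 0.0241), the ER oxidase Ero1b (-0.94, 0.0303) and the prolyl isomerase Ppib (-0.61, 0.0731). Ero1a, an oxidase induced by CHOP and by hypoxia, was higher (1.2, limma adjusted p = 0.0151). The array design places the Ero1a probe on another chromosome than RefSeq places the gene, so its target is uncertain. Of 24 genes of ER-associated degradation and the translocon, 6 were lower and 1 higher, 29.2% called against 34.2% of all tested genes. Erlec1, a lectin that hands over misfolded glycoproteins, fell by 0.94 (limma adjusted p = 0.00767), the ubiquitin ligase Syvn1 fell by 0.86 (0.0120) and the lectin Os9 fell by 0.71 (0.0342). Derl3, a channel component that is induced by XBP1, fell by 2.46 (0.0515), with overlapping groups because +/+_1024 lay at -1.38, between the Rbpj-/- livers.

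Targets of ATF4 were counted in 3 lists. Of 16 genes for amino acid synthesis and transport, 2 were higher and 1 was lower, with a median of 0.34, and 18.8% were called, fewer than the 34.2% of all tested genes. Slc1a5, a glutamine transporter, was higher (1.2, limma adjusted p = 0.00378), as was Pycr1, an enzyme of proline synthesis (1.45, 0.0493). Pycr1 was well above background on 3 of the 4 Rbpj+/+ arrays and passed the filter on dim probes only through the Rbpj-/- arrays. Slc6a9, a glycine transporter, fell by 1.48 (limma adjusted p = 0.0120). Of 12 aminoacyl-tRNA synthetases, 4 were lower and none was higher, with a median of -0.31, and the 33.3% called were near the 34.2% of all tested genes. Cars1 fell by 1.26 (limma adjusted p = 0.00828), Sars1 by 0.96 (0.00827), Aars1 by 0.83 (0.0209) and Mars1 by 0.57 (0.0681). Of 13 other targets of ATF4 and CHOP, 3 were higher and 1 lower, 30.8% called against 34.2% of all tested genes. The death receptor Tnfrsf10b (1.29, limma adjusted p = 0.0122), the lipoprotein receptor Vldlr (1.28, 0.0318) and the thioredoxin inhibitor Txnip (0.67, 0.0412) were higher. Tnfrsf10b, like Pycr1, was well above background on 3 of the 4 Rbpj+/+ arrays and passed the filter only through the Rbpj-/- arrays. Sesn2, a stress-induced brake on mTOR signalling, fell by 0.63 (0.0756).

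Atf3 is also an immediate early gene, one of those transcribed within minutes of many stimuli without new protein synthesis. Of 16 other genes of this kind that were tested, 10 were higher and none was lower, 62.5% called against 34.2% of all tested genes (14.6% higher), with a median of 1.28. Some of the 10, among them Fos, Egr2 and Ier3, passed the filter on dim probes only through the Rbpj-/- arrays, where they were high. The filter thus favoured their calls, and the count is no separate support for a change of these genes. Fos, a subunit of the AP-1 factor, was not well above background in any Rbpj+/+ liver and was well above it in all Rbpj-/- livers, at least 6.01-fold higher (limma adjusted p = 0.00123). Egr2, a zinc finger factor, was at least 3.14-fold higher in the same way (limma adjusted p = 0.00182). The bounds are the mean of the Rbpj-/- group over the mean of the lowest signals among probes well above background in the Rbpj+/+ arrays, or of the signal of the gene where that was higher. The detection limit of a single probe can lie above that lowest signal, so the bounds are approximate. The limma p-values of Fos and Egr2 use the Rbpj+/+ signals as measured. Ier3, a survival factor, had log2 levels of -3.52 to -1.90 in Rbpj+/+ livers and 1.35, 1.72 and -1.32 in -/-_N3, -/-_N5 and -/-_2866 (log2 fold change 3.23, limma adjusted p = 0.0127). Btg2, an inhibitor of proliferation (2.24, 0.0213), the nuclear receptor Nr4a1 (2.06, 0.00541) and the zinc finger factor Klf6 (1.90, 0.00429) were also higher. In Atf3, Fos, Egr2, Ier3, Btg2, Nr4a1 and Klf6, -/-_2866 had the lowest level of the Rbpj-/- livers.

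Fgf21 is also a target of PPARalpha, the fatty acid sensor that drives fat oxidation during fasting. Of 15 tested genes in the list of PPARalpha targets, which includes Ppara, 6 were lower and none was higher, with a median of -0.70. Of the 15 genes, 40% were called against 34.2% of all tested genes (19.6% lower). Ppara, which encodes the receptor and is among the 6 lower genes, had log2 levels of 5.52 to 6.33 in Rbpj+/+ livers. In Rbpj-/- livers it had 4.22 to 5.08 (log2 fold change -1.40, limma adjusted p = 0.00962). Cyp4a10, a fatty acid hydroxylase, had log2 levels of 5.55 to 6.81 in Rbpj+/+ livers against 1.92, 2.12 and 6.29 in -/-_N3, -/-_N5 and -/-_2866 and fell by 2.81 (limma adjusted p = 0.0602), while -/-_2866 lay within the range of the Rbpj+/+ livers. Acot1, an acyl-CoA thioesterase, fell by 1.43 (0.0415). Of 5 genes in the FGF21 receptor list, 2 were lower and none was higher, 40% called against 34.2% of all tested genes (19.6% lower). The lower genes were Fgfr3 (-1.35, limma adjusted p = 0.00904) and Fgfr4, the main FGF receptor of hepatocytes (-0.52, 0.0534). The other 3 did not pass the test, and how strongly FGF21 acts through each receptor was not measured.

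Under the alternative processing settings and with arrays left out, Atf3 was called higher in each of the 18 fits in which it was tested, and Fgf21 lower in 16 of 18. Atf4 was called lower in 13 of 19. Ddit3, Asns and Herpud1 were called in none of their 19 fits, and Trib3, Chac1, Hspa5 and Xbp1 in 1 to 3.

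**Figure D5:**
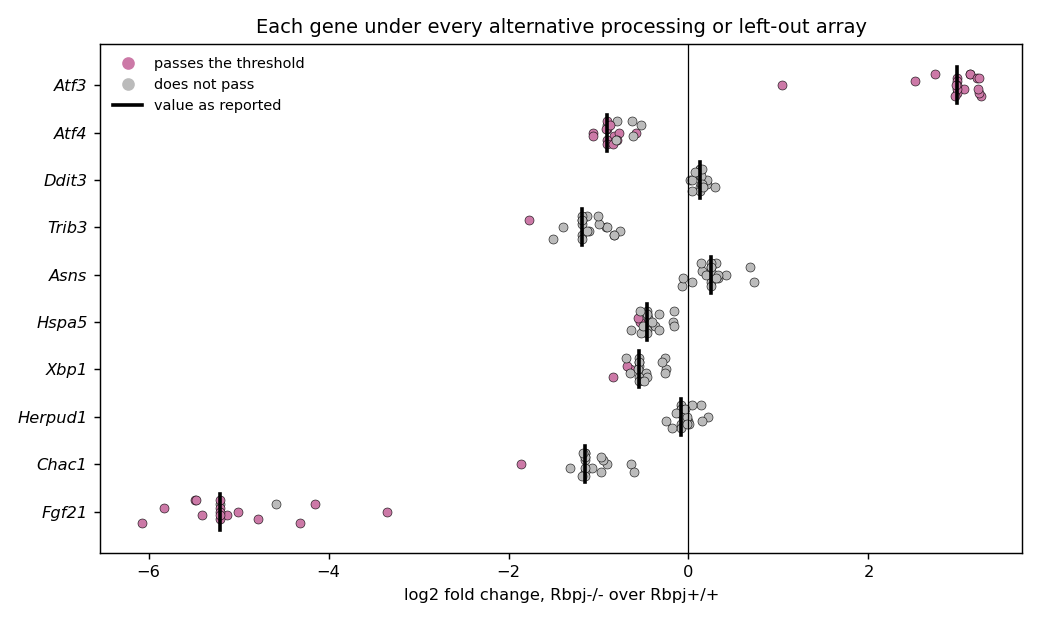
Log2 fold change, Rbpj-/- over Rbpj+/+ (x axis), of each gene under each alternative setting or left-out array (points, purple where the threshold was passed and grey where it was not), with the reported value as a black bar. Atf3 spans 1.04 to 3.25 and Fgf21 -6.07 to -3.36, each on one side of 0, while Asns and Herpud1 cross 0.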

How the data were processed

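Per the file headers, the deposited scanner files were made by the authors with Agilent Feature Extraction 10.7.3.1 from 1-colour arrays, and hold background-subtracted intensity values. The deposited series matrix holds the authors' log2 values of the same arrays, used as an alternative; each column's median was -0.0039 to 0, and after centring each probe they correlated with quantile-normalised scanner values at 0.9999 or more, against 0.760 to 0.969 with percentile-shifted ones, in the same direction. Spots of 1 probe were averaged on the log2 scale without non-uniform and population outlier spots, and each array's 75th percentile was subtracted. A probe was tested when every array of either genotype had it well above background (24547 probes) with limma 3.58.1 in R 4.3.3. A gene is represented by its brightest tested probe. Some list genes had further probes, such as Ppara and Cyp4a10 with 3 probes each, and these are not described singly. Exact permutation tests were two-sided. Probe positions (mm9) are those of the array design; names were updated through RefSeq by accession (28331 probes) or symbol (2209 probes). No spot of the array set was saturated.

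The members and lists were chosen with earlier results of these data known. Beyond the 10 genes and Rbpj, the text names from each list the 4 called genes with the largest absolute log2 fold change, and any gene well above background in only 1 genotype. A result that this rule would name is not reported here. Alternatives were normexp (offset 50), quantile normalisation, other filters, limma-trend, array weights, the series matrix, the mean of a gene's probes, a threshold of 0.05, each array left out, and, chosen after seeing the data, +/+_1156 and -/-_N3 left out together.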

Additional observations from a re-analysis of the deposited data

Results flagged for a closer look

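In each named gene the 4 Rbpj+/+ livers were checked for a liver that stood apart, which chance gives in about 1 of 20 groups, and 2 of 46 genes had one. For Ppib, a prolyl isomerase of the ER, +/+_1156 had a log2 level of 6.28 and the other Rbpj+/+ livers 6.89 to 6.91, so that the gap was 0.969 of the range, and the Rbpj-/- livers lay at 6.09 to 6.24. For Slc1a5, a glutamine transporter, +/+_1155 had a log2 level of -1.42 and the others -1.10 to -1.04, a gap of 0.845 of the range, below the Rbpj-/- livers at -0.03, 0.17 and -0.02.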

How the results depend on the processing

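Of the values of the 10 genes under all settings, 166 kept their direction and their side of the threshold, 8 lost and 7 gained a call, and 7 changed sign. The count of the 10 genes called lower, 2 as reported, was 1 with quantile normalisation, 1 with detection required on all arrays, 1 with the series matrix, 1 with the mean of a gene's probes, 0 without a filter on dim probes, 4 with array weights, 1 without +/+_1156 and -/-_N3 together, and 1 to 4 when 1 array was left out (1 without -/-_N3, 4 without +/+_1156). The count called higher, 1 as reported, was 0 with detection required on all arrays, where Atf3 and Fgf21 were not tested. Of the listed pathway genes, 17 were called higher as reported, 5 without a filter and 11 without +/+_1156 and -/-_N3 together. The count called lower, 30 as reported, was 8 without a filter, 19 at a threshold of 0.05 and 13 to 38 when 1 array was left out (13 without -/-_N5, 18 without -/-_N3). Without a filter, 35753 genes were tested and 969 were called higher and 673 lower of all genes. Of the values that changed sign, Herpud1 was 0.22 with normexp, 0.14 with quantile normalisation, 0.15 with the series matrix and -0.249 to 0.0431 with 1 array left out, and Asns was -0.0687 to 0.727 with 1 array left out. Atf4 lost its call in 6 settings and Fgf21 in 2. The cause was not tested. No paired analysis was possible because the labels give the groups no shared replicate numbers. Levels of probes that were not well above background, as for Atf3 in +/+_1024 and +/+_991 and Fgf21 in -/-_N3, entered the fits as measured. They are uncertain, which leaves the size of both changes uncertain.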
